A study of Mus musculus with 8 samples.

Results

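The genes described here are 10 colony-stimulating and haematopoietic cytokine genes: Csf1, Il34 and their receptor Csf1r, the granulocyte factors Csf2 and Csf3, the stem cell factors Kitl and Flt3l, and the lymphoid cytokines Il7, Il15 and Tslp. They were taken by gene symbol from the 22274 genes of the deposited table, and all 10 were found. Primary murine cardiac fibroblasts, the matrix-producing cells of the heart kept in culture, had received a virus and then TGF-β, a cytokine that drives fibroblasts towards the myofibroblast state, at 5 ng/ml for 24 h. By the study's methods, the 4 libraries named GFP are from cells with an empty vector and the 4 named OEIRF7 from cells with a FLAG-tagged IRF7, an interferon regulatory factor, and TGF-β was common to both groups. The study's mice were on a C57BL/6 J background, while the strain, sex and age of the mice behind these cultures are not stated for the libraries. The study's text gives, for the experiments shown together with this one, fewer biological replicates than the 4 libraries labelled in each group and does not tie libraries to cultures, so p-values measure the spread between these libraries, which may be technical. The deposited design text calls the virus adeno-associated and the study's methods call it adenovirus. The study's reagent list gives human IRF7 for the adenovirus and mouse Irf7 for the adeno-associated virus.

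Total counts per library lay between 24888589 and 27095611 in the GFP group and between 24454801 and 28658826 in the OEIRF7 group. Counts were expressed as CPM, the reads of a gene at a common library depth (TMM scaling), and 13533 genes that passed edgeR's filter on low counts were tested. Mouse Irf7 went against the name of the OEIRF7 libraries. It had 118 ± 24 CPM (SD, n = 4) in GFP and 15.2 ± 0.822 CPM (SD, n = 4) in OEIRF7, a fall by 2.96 on the log2 scale (standard error 0.12, adjusted p = 7.7e-11, edgeR). These are counts of the mouse gene, so they do not check a human transgene. For a vector with mouse Irf7 the fall would conflict with the label, and which vector was used is not settled here. Directions below are between the libraries labelled GFP and OEIRF7. The 9 fibroblast markers summed to 13395 to 14114 CPM in GFP and 11796 to 12388 CPM in OEIRF7, with Col1a1 and Col1a2 the most abundant in both. Of these 9, 6 were lower in OEIRF7, among them Tcf21, Col3a1 and Postn with log2 fold changes of -1.33, -0.53 and -0.38, and Pdgfra was higher. Over all tested genes 29.9% were lower and 29.0% higher. The part of the fall of fibroblast markers in the cytokine levels was not tested. Markers of neutrophils, mast cells and lymphocytes summed to at most 0.933, 0.483 and 0.655 CPM in any library. Of these lists, S100a8 and Mpo, Mcpt4 and Ms4a2, and Ms4a1 and Cd79a were the most abundant members. Endothelial markers summed to 207 to 220 CPM in GFP and 212 to 236 CPM in OEIRF7, with Cdh5 and Pecam1 at the top. Of these 7, 4 were higher in OEIRF7, namely Kdr, Vwf, Cldn5 and Emcn, with log2 fold changes of 0.79, 0.49, 0.48 and 0.29. Cdh5 was lower, with -0.11, and Pecam1 and Tek were not past the threshold. The endothelial sum thus rests mainly on genes that did not rise. Mural markers, led by Cspg4 and Notch3, summed to 65.7 to 72.3 and 77.3 to 97.3 CPM. Cspg4 was higher and Notch3 lower in OEIRF7, both past a log2 fold change of 1 in size and without overlap between the groups. Rgs5 was higher as well. The mural sum therefore joins changes in opposite directions. Epicardial markers summed to 72.4 to 88.6 CPM in GFP and 58.3 to 65.8 CPM in OEIRF7. Of these 5, Upk3b was lower and Krt19 and Msln were higher, while Upk1b, with Upk3b the most abundant over all 8 libraries, was not past the threshold. Cardiomyocyte markers, of which Tnnt2 and Ryr2 had the highest means over all 8 libraries, summed to 9.84 to 13.7 and 7.5 to 9.73 CPM.

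Colony-stimulating factors are secreted or membrane-bound proteins that keep blood cell precursors and mature leukocytes alive and make them divide. CSF1 and IL-34 are alternative ligands of the receptor tyrosine kinase CSF1R on monocytes and macrophages, while CSF2 and CSF3 act on granulocytes and their precursors through cytokine receptors that signal by JAK kinases and STAT factors. In the heart, fibroblasts and other stromal cells are known sources of such factors, and resident macrophages depend on CSF1R.

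Of the 10 genes, 9 passed the filter on low counts. At an adjusted p under 0.05, 5 were higher in OEIRF7 (Csf1, Il34, Csf2, Kitl and Il7) and Il15 alone was lower, while Csf1r, Flt3l and Tslp were not past the threshold and Csf3 had too few counts to be tested. Among all tested genes 58.9% passed, with 29.0% higher and 29.9% lower, so a pass by itself was common in this comparison. Past a log2 fold change of 1 in size as well, which 8.56% of the tested genes were, only Csf2 remained. Csf2 passed the filter through its counts in OEIRF7 alone, so it had to differ once it was tested. The median log2 fold change of the 9 tested genes was 0.41, beside 0.00 over all tested genes.

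**Figure D1:**
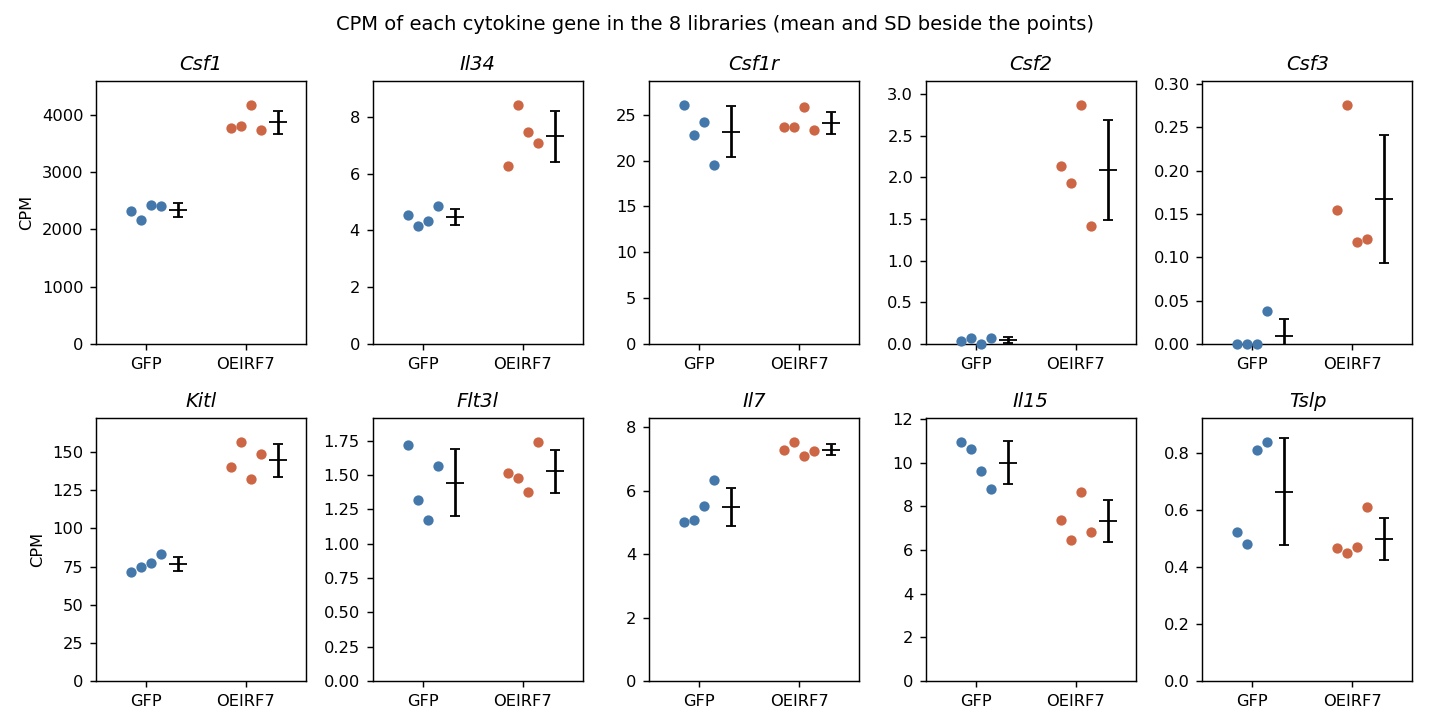
CPM of each of the 10 genes (vertical axes, each from 0) in the 4 GFP libraries (blue) and the 4 OEIRF7 libraries (red-orange), replicates 1 to 4 from left to right, with the mean and SD as black bars. Csf1, Il34, Csf2, Csf3, Kitl, Il7 and Il15 have no overlap between groups, and Csf1r, Flt3l and Tslp overlap.

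Csf1, the macrophage colony-stimulating factor, was by far the most abundant of the set. Its CPM were 2312, 2167, 2431 and 2413 in GFP replicates 1 to 4 and 3770, 3805, 4166 and 3735 in OEIRF7 replicates 1 to 4. Every OEIRF7 library lay well above every GFP library, and the mean went from 2331 ± 121 to 3869 ± 200 CPM (SD, n = 4 per group). Csf1 rose by 0.73 on the log2 scale, or 1.66-fold (standard error 0.040, adjusted p = 1.3e-09, edgeR's quasi-likelihood test). In FPKM, a unit that corrects for depth and transcript length, its mean ranked 69 of 22274 genes in GFP and 31 in OEIRF7. In RNA from whole cultures, more cells that express a gene and more RNA per cell cannot be told apart.

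Il34, the other ligand of CSF1R, was expressed at a low level. Its CPM were 4.55, 4.17, 4.33 and 4.84 in GFP and 6.28, 8.41, 7.46 and 7.06 in OEIRF7. The groups did not overlap, and OEIRF7 replicate 2 was the highest of all 8. Il34 rose by 0.71 on the log2 scale (standard error 0.11, adjusted p = 7.0e-05, edgeR). Per transcript length, Csf1 exceeded Il34 by a factor of 242 ± 12.7 in GFP and 240 ± 27.1 in OEIRF7 (ratio of FPKM, SD, n = 4 per group). The log2 ratio of both ligands differed by 0.01 between the groups (exact two-sided permutation test, p = 0.97, where 4 against 4 allow no less than 0.029), and by -0.05 to 0.08 when 1 library was left out. That value used a pseudocount of 0.1 FPKM. With a pseudocount of 1 FPKM, which weighs on the low Il34 values, the difference was 0.15 (exact permutation test, p = 0.086).

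Csf1r, the receptor of both ligands and a gene of the macrophage lineage, was not past the threshold. Its CPM were 26.0, 22.8, 24.2 and 19.6 in GFP and 23.6, 23.7, 25.8 and 23.3 in OEIRF7, so that the OEIRF7 values fell inside the GFP range. The log2 fold change was 0.06, with a 95% interval from -0.11 to 0.22 (adjusted p = 0.54, edgeR). The rises of both ligands lay above the upper end of this interval. In the annotation, 873 of the 5774 exon bases of Csf1r overlap exons of Hmgxb3 on the opposite strand, and the strand setting of the counting is not stated. Hmgxb3 rose by 0.25 in log2 units, with 63.4 ± 2.84 CPM in GFP and 75.4 ± 4.09 CPM in OEIRF7 (n = 4 each, SD, edgeR's adjusted p = 0.00031).

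Macrophage and monocyte markers other than Csf1r were present in every library. The 13 listed genes summed to 296 to 350 CPM in GFP and 375 to 424 CPM in OEIRF7, with Lyz2 and Cd68 the most abundant. Of the 12 that were tested, 6 were higher, among them Itgam, Cd14 and Mrc1, and 1 was lower, Cx3cr1. The other 5 were not past the threshold, among them Ptprc and the complement genes C1qa, C1qb and C1qc. The shares over all tested genes were 29.0% higher and 29.9% lower. Ly6c2 was at or near 0 in every library. The part of these cells in the levels of Csf1r and of the cytokines was not tested. Dendritic cell markers, led by Itgax and Zbtb46, summed to 9.48 to 11.1 CPM in GFP and 12.9 to 16.5 CPM in OEIRF7. Of the 6 listed, 3 were tested. Itgax and Xcr1 were higher, and Zbtb46 was not past the threshold.

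**Figure D2:**
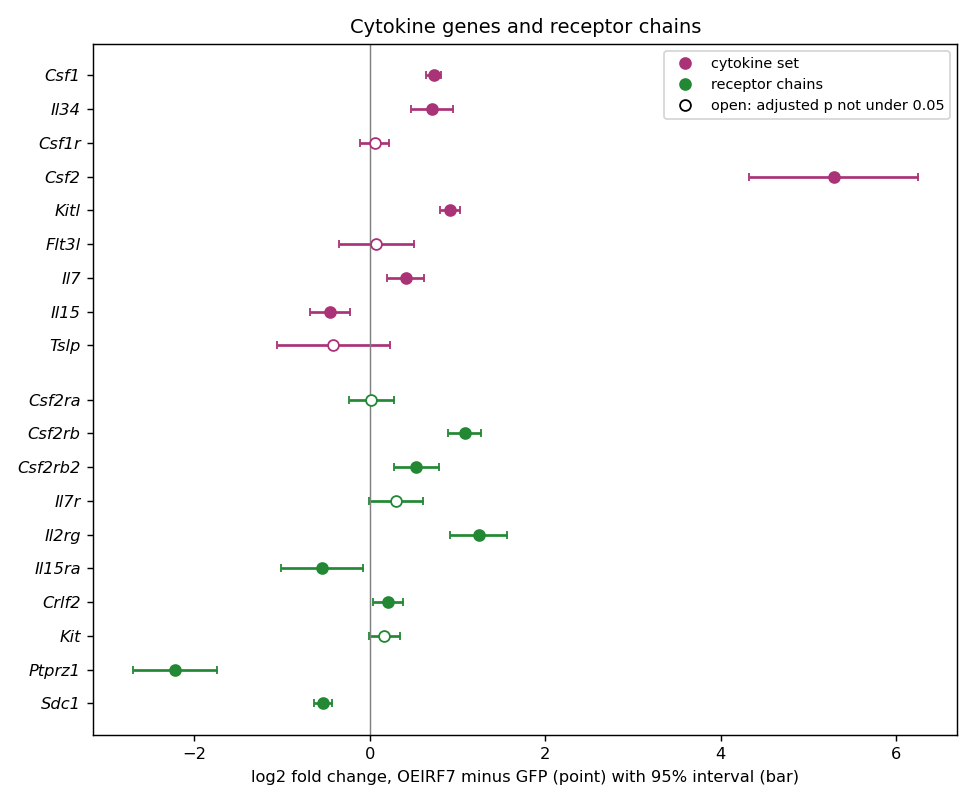
Log2 fold change, OEIRF7 minus GFP, with its 95% interval for the 9 tested cytokine genes (purple) and the 10 tested receptor chains (green), with open points for an adjusted p not under 0.05. Csf2 stands apart at 5.29 and Ptprz1 at -2.22, and the other points lie between -0.54 and 1.24.

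Csf2 encodes GM-CSF, which drives granulocyte and macrophage precursors and activates mature myeloid cells. It was near the limit of detection in GFP, with 1, 2, 0 and 2 counts, and had 55, 56, 73 and 35 counts in OEIRF7. The lowest OEIRF7 library therefore held many times the highest GFP count. In CPM this was 0.0484 ± 0.0376 against 2.09 ± 0.600 (SD, n = 4 per group). Csf2 rose by 5.29 on the log2 scale (standard error 0.45, 95% interval 4.32 to 6.25, adjusted p = 1.3e-07, edgeR). It passed the filter through OEIRF7 alone, so this p-value and interval are no separate support for a difference. The fold rests on a GFP group with 5 counts in all. These counts, against 219 in OEIRF7, gave a ratio of 42.8 after scaling, with an exact 95% interval from 18.1 to 133 that covers counting error only. The size of the fold change depends on the scale, since on log2(FPKM + 1) it was 1.75.

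Csf3 encodes G-CSF, the main growth factor of neutrophils. Its counts were 0, 0, 0 and 1 in GFP and 4, 8, 3 and 3 in OEIRF7, with no overlap between groups. The ratio of the summed counts, 1 against 18, was 17.6, with an exact 95% counting interval from 2.78 to 734. At this depth the size of the difference is therefore hardly determined. When genes with at least 1 count in total were tested, the log2 fold change of Csf3 was 3.58 with a standard error of 1.07 (edgeR, adjusted p = 0.0094).

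Kitl, the ligand of the receptor KIT on stem, germ and mast cells, was the second most abundant gene of the set. Its CPM were 71.7, 74.6, 77.3 and 83.0 in GFP and 140, 157, 132 and 149 in OEIRF7. The groups lay far apart compared with the spread within each. Kitl rose by 0.92 on the log2 scale, or 1.89-fold (standard error 0.055, adjusted p = 3.6e-09, edgeR). Flt3l, which acts through FLT3 on dendritic cell and stem cell precursors, had 1.72, 1.32, 1.17 and 1.56 CPM in GFP and 1.51, 1.48, 1.37 and 1.74 CPM in OEIRF7. These ranges overlapped, with a log2 fold change of 0.08 and a 95% interval from -0.35 to 0.50 (adjusted p = 0.77, edgeR). A change of Flt3l as large as that of Kitl lay outside this interval. In the annotation 856 of the 3878 exon bases of Flt3l are shared with Gm45713 on the same strand. Gm45713 had 10 counts in GFP replicate 3, where Flt3l had its lowest count of 29, and 0 counts in every other library. Without GFP replicate 3 the log2 fold change of Flt3l was -0.0096 (adjusted p = 0.97, edgeR).

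Il7, a survival factor of lymphocytes made by stromal cells, had 5.0, 5.09, 5.51 and 6.33 CPM in GFP and 7.29, 7.55, 7.11 and 7.26 CPM in OEIRF7. All OEIRF7 libraries were higher and lay closer together than the GFP libraries. Il7 rose by 0.41 on the log2 scale (standard error 0.099, adjusted p = 0.0023, edgeR). Il15, which sustains natural killer cells and memory T cells and is inducible by interferon, was the 1 gene of the set that fell. It had 11, 10.6, 9.64 and 8.81 CPM in GFP and 7.37, 6.45, 8.68 and 6.81 CPM in OEIRF7. The groups did not overlap, but GFP replicate 4 and OEIRF7 replicate 3 came close to each other. Il15 fell by 0.45 on the log2 scale (standard error 0.11, adjusted p = 0.0019, edgeR), and in FPKM its ranges overlapped (adjusted p = 0.040, limma on log2(FPKM + 1)). Tslp, an epithelial and stromal cytokine that acts on dendritic cells, had 14, 12, 20 and 22 counts in GFP and 12, 13, 12 and 15 in OEIRF7. With so few counts its log2 fold change of -0.41 had a 95% interval from -1.06 to 0.23 (adjusted p = 0.25, edgeR), so that a fall past -1 and no change were both inside it.

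For 7 of the 10 genes, Csf3 included, the CPM of the groups did not overlap, which was also so in 53.8% of all tested genes. Csf3 was not among the tested genes, and Csf2 passed the filter through OEIRF7 alone. Without overlap the exact two-sided permutation p is fixed at 0.029, the smallest that 4 against 4 allow. For these 7 it therefore adds nothing to the lack of overlap. For Csf1r, Tslp and Flt3l the same exact permutation test gave p = 0.63, 0.17 and 0.54.

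Levels of different genes were compared in FPKM, which the authors had divided by transcript length. In GFP the order was Csf1 (623 ± 26.5 FPKM), Kitl (14.2 ± 1.07), Il15 (8.36 ± 1.58), Csf1r (8.31 ± 2.28), Il34 (2.58 ± 0.163), Il7 (2.11 ± 0.199), Flt3l (1.34 ± 0.235), Tslp (0.583 ± 0.166), Csf2 (0.06 ± 0.0455) and Csf3, listed at 0 in 3 libraries (SD, n = 4). Il15 and Csf1r, and likewise Csf2 and Csf3, overlapped in range, and all other neighbours were apart. In OEIRF7 the mean of Csf2 was 2.63 ± 0.746 FPKM, above those of Tslp and Flt3l, and its range overlapped those of Il7 (2.74 ± 0.107) and Flt3l (1.47 ± 0.242). Csf1r (7.94 ± 1.37) and Il15 (6.08 ± 1.30) overlapped as well, as did Il15 and Il34 (4.31 ± 0.523), whose ranges had been apart in GFP.

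**Figure D3:**
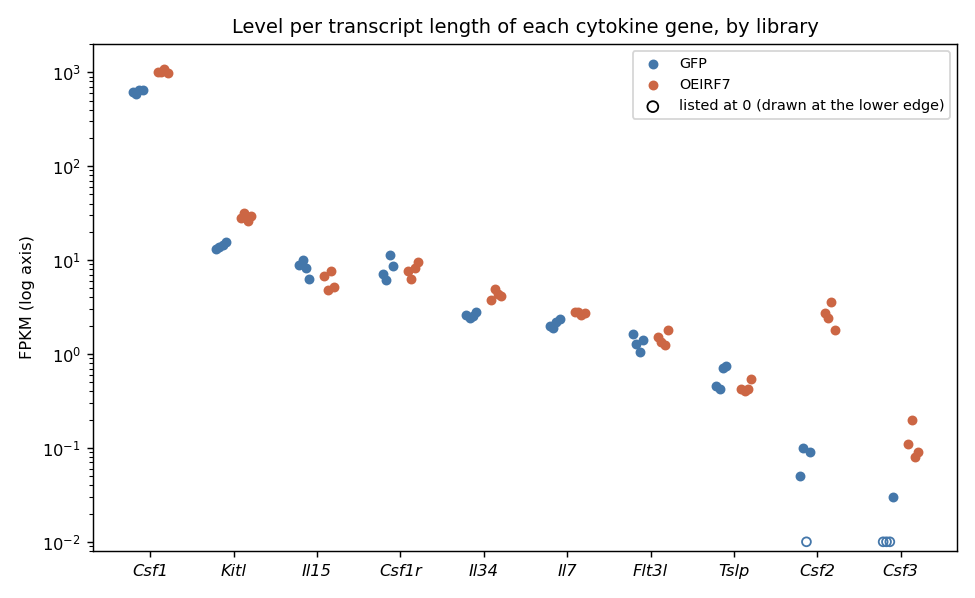
FPKM (log axis) of the 10 genes in each GFP (blue) and OEIRF7 (red-orange) library, ordered by their mean in GFP. Csf1 lies between 591 and 1091 FPKM, far above the next gene, Kitl, and values listed at 0 are drawn as open circles at the lower edge.

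Promoter sequences are shown for the 4 of the 10 genes that the RefSeq table at hand (GRCm38.p6) held, namely Csf1, Kitl and Csf2, which rose, and Flt3l, which was not past the threshold. They run from 250 bases before to 50 after the start site, each printed 5′ to 3′ on the strand of the gene. Capitals mark matches on either strand to GGGA followed by any 4 bases and CC, an approximation of the NF-kB site, or to GAAA, any 2 bases and GAAA again, the core of the interferon response element that IRF proteins bind. The AP-1 motif TGANTCA was searched too and had no match in these windows. The Csf1 window is chr3:107760420-107760719 on the minus strand, that of Kitl chr10:100015571-100015870 on the plus strand, that of Csf2 chr11:54249850-54250149 on the minus strand, and that of Flt3l chr7:45136383-45136682 on the minus strand.
Csf1: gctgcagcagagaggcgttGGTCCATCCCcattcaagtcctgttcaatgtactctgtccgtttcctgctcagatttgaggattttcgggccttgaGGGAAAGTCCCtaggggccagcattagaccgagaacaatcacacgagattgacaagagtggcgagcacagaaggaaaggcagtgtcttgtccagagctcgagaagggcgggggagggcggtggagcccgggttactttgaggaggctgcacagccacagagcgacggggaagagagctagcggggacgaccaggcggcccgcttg
Kitl: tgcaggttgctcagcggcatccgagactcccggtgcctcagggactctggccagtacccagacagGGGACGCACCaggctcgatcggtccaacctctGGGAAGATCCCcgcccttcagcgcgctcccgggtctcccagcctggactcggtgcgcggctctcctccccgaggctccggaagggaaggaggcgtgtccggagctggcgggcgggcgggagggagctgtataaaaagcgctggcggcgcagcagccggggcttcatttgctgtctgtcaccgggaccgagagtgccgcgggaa
Csf2: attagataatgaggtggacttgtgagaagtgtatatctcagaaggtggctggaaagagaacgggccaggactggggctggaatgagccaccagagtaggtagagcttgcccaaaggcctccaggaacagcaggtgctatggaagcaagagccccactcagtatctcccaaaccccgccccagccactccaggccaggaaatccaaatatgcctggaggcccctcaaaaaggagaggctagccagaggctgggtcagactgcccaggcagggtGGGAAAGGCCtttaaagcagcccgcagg
Flt3l: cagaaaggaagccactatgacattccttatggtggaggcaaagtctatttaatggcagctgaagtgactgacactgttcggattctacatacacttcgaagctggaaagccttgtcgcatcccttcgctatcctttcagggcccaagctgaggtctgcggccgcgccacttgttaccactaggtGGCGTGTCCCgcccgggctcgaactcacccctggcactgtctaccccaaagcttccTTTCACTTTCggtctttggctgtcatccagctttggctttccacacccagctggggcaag
Csf1 and Kitl each held 3 matches to the first motif, 2 of which overlap, and Csf2 and Flt3l held 1 each. Of 32851 windows of this length in the table, 20.7% held that motif, 3.44% the interferon element core and 7.81% the AP-1 motif. The interferon element core was found in Flt3l alone of these 4 windows, 10 bases before the start site. The RefSeq start site of Csf2 lies 232 bases before the GENCODE start of the gene and that of Kitl 191 bases after it, so the windows do not cover the same stretch under both annotations. A match is a resemblance of letters and was not tested as a binding site.

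The receptor chains showed changes in both directions. Of 13 listed chains, 10 were tested, 4 of which were higher and 3 lower, beside 29.0% higher and 29.9% lower among all tested genes. For CSF2, the specific chain Csf2ra was not past the threshold, with 8.24 ± 1.33 CPM in GFP and 8.37 ± 1.01 CPM in OEIRF7 (SD, n = 4 per group). The signalling chain Csf2rb rose by 1.08 in log2 units, with 4.68 ± 0.325 CPM in GFP and 9.93 ± 0.275 CPM in OEIRF7 (n = 4 each, SD, edgeR's adjusted p = 7.4e-08). Csf2rb2, its near-identical mouse copy that serves IL-3, rose by 0.53, and reads that fit both copies make the division between them uncertain. Csf3r had 17 counts in all of GFP and 1 in all of OEIRF7 and was not tested, so the receptor of Csf3 was hardly detected in these cultures.

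Il2rg, the common chain of the IL-7 and IL-15 receptors, rose by 1.24 in log2 units, with 2.49 ± 0.606 CPM in GFP and 5.89 ± 0.194 CPM in OEIRF7 (n = 4 each, SD, edgeR's adjusted p = 5.5e-06). The chain that presents IL-15, Il15ra, fell by 0.54 with its ligand (adjusted p = 0.045, edgeR), and Il2rb, the third chain, had 27 counts in GFP and 16 in OEIRF7 and was not tested. Il7r, with 2.80 ± 0.283 and 3.44 ± 0.365 CPM (SD, n = 4 per group), was not past the threshold (adjusted p = 0.084, edgeR). Crlf2, the TSLP receptor chain, rose by 0.21 (adjusted p = 0.032, edgeR), with overlap between the groups. Kit was not past the threshold at 9.52 ± 0.687 and 10.7 ± 0.836 CPM (SD, n = 4 per group, adjusted p = 0.10, edgeR), and Flt3 had no count in any library. Ptprz1 and Sdc1, alternative binding partners of IL-34, both fell, the former with a log2 fold change of -2.22, with 5.25 ± 1.36 CPM in GFP and 1.12 ± 0.283 CPM in OEIRF7 (n = 4 each, SD, edgeR's adjusted p = 8.2e-07), and the latter by 0.53.

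Signalling genes behind the receptors moved both ways. Of 18 listed JAK, STAT and inhibitor genes, 17 were tested, with 8 higher, 5 lower and a median log2 fold change of 0.09. Over all tested genes 29.0% were higher and 29.9% lower, so calls in both directions were common in this comparison. Cish, an inhibitor that STAT5 induces, rose by 2.33 in log2 units, with 3.05 ± 0.374 CPM in GFP and 15.4 ± 1.5 CPM in OEIRF7 (n = 4 each, SD, edgeR's adjusted p = 2.2e-10). Socs3, which restrains signalling of the CSF3 and IL-6 receptors, rose by 1.03 in log2 units, with 9.40 ± 0.928 CPM in GFP and 19.3 ± 1.15 CPM in OEIRF7 (n = 4 each, SD, edgeR's adjusted p = 4.6e-08). Socs2, Socs5, Socs6 and Socs7 were higher by 0.16 to 0.61, Socs4 was lower, and Socs1 was not past the threshold. Of the kinases, Jak1 and Jak2, the latter used by the CSF2 receptor, were higher by 0.09 and 0.39, and Jak3, the partner of Il2rg, fell by 0.40. Stat3, Stat5b and Stat6 fell by 0.18, 0.40 and 0.09 on the log2 scale, and Stat2 and Stat5a were not past the threshold.

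**Figure D4:**
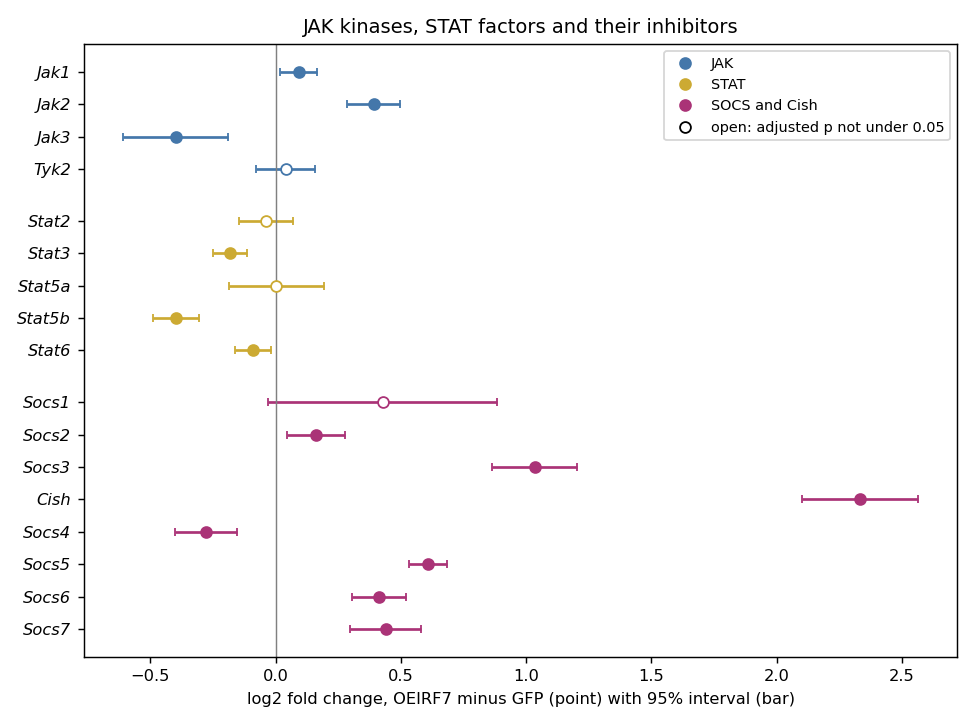
Log2 fold change, OEIRF7 minus GFP, with its 95% interval for the tested JAK kinases (blue), listed STAT factors (yellow) and SOCS inhibitors with Cish (purple), with open points for an adjusted p not under 0.05. Cish lies at 2.33 and Socs3 at 1.03, and the other points lie between -0.40 and 0.61.

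Other haematopoietic cytokines were nearly absent. Of 10 listed genes, Il4, Il9, Il13 and Epo had no count in any library, and Il2, Il3, Il5, Il21 and Thpo did not pass the filter on low counts. The 1 tested gene, Cxcl12, which holds haematopoietic cells in the bone marrow, rose by 0.67 in log2 units, with 158 ± 9.72 CPM in GFP and 252 ± 6.97 CPM in OEIRF7 (n = 4 each, SD, edgeR's adjusted p = 6.5e-09). Of 5 genes that cut membrane-bound CSF1, KIT ligand and FLT3 ligand or guide the protease that does, Mmp9 and Rhbdf2 rose by 5.88 and 1.08 on the log2 scale. Adam17 and Rhbdf1 were lower, by -0.14 and -0.38 in log2 fold change, and Adam10 was not past the threshold. Mmp9 had 2, 3, 4 and 10 counts in GFP and 276, 367, 334 and 205 in OEIRF7, so that, like Csf2, it passed the filter through OEIRF7 and had to differ once it was tested.

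Csf2 and Kitl had the largest log2 fold changes among the 9 that were tested. Their patterns were compared with those of 12489 genes with a mean of at least 1 CPM over the 8 libraries. Likeness was the root mean square difference of log2 CPM over the 8 libraries after the mean of each gene was subtracted, with no test. The log2 CPM carried a prior count of 2, which narrows the differences of genes near 0 in 1 group. Nearest to Csf2 were Lce1f, Tnip3 and Ccl7, at differences of 0.39, 0.46 and 0.46, with log2 fold changes of 4.77, 3.82 and 3.93. Lce1f and Tnip3 had 0.234 and 0.184 CPM on average in GFP and 6.52 and 2.67 CPM in OEIRF7. Like Csf2, both reached a mean of 1 CPM through OEIRF7, so their likeness to Csf2 depends on the prior count. Ccl7, a monocyte chemokine, had 252 CPM in OEIRF7 and 16.6 CPM in GFP. Nearest to Kitl were Ier2, Fbxo32 and Cdc42ep5, at differences of 0.05, 0.06 and 0.06 and with log2 fold changes of 0.88, 0.93 and 0.92.

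By position, the genes lie on 6 chromosomes of GRCm38 in the GENCODE annotation, all as protein-coding genes. Csf1 spans 107741048 to 107760469 on the minus strand of chromosome 3, Csf2 spans 54247271 to 54249667 on the minus strand of chromosome 11 and Kitl spans 100015630 to 100100416 on the plus strand of chromosome 10. Il34 and Il15, which moved in opposite directions, are both on the minus strand of chromosome 8, from 110741829 to 110805924 and from 82331632 to 82403222. Csf2 shares 96 of its 800 exon bases with the antisense gene Gm12223. Il34 shares 1.12% of its exon bases with the antisense gene Gm15894 and 3.83% with Gm15895, and Il7 shares 1.85% with Gm16685. These antisense genes were not analysed here.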

How the data were processed

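RNA-seq of 4 GFP and 4 OEIRF7 libraries was analysed. According to the study's methods, the authors trimmed reads with Trimmomatic, mapped them to GRCm38 with HISAT2, obtained gene counts from HTSeq-count and computed FPKM with Cufflinks. The strand setting is not given in the sources used here, and the labels and the methods name different library kits. The deposited table holds raw counts for 22274 genes, and the deposited FPKM values, rounded by the authors, were used to compare levels between genes. The table also holds group means, fold changes, p-values and false discovery rates from the authors' own comparison, which were not used. In 121 symbols the letters nc had been replaced by GFP, and these were restored by gene ID from GENCODE.

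Counts were scaled by TMM and tested with edgeR 4.0.16 (filterByExpr, quasi-likelihood fit, no covariates, R 4.3.3), and p-values were adjusted by Benjamini-Hochberg over the 13533 tested genes. A gene was called at an adjusted p under 0.05. Standard errors were the log2 fold change over the square root of F. Single values were compared by exact two-sided permutation tests on log2 CPM (prior count 2). Count ratios carry exact binomial 95% intervals. DESeq2 1.42.0, limma 3.58.1 on log2(FPKM + pseudocount), other filters and scalings, a replicate block and leaving out each library were the alternatives. On simulated counts for this comparison, with 200 of 13439 genes changed 2-fold, edgeR found 200, with 2.91% false calls. The changed genes were drawn above a count minimum, and all genes had the same dispersion. The simulation therefore does not cover genes with few counts, or data in which 58.9% of tested genes were called.

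Named were the 10 genes, their receptor chains, genes of the other lists past a log2 fold change of 1 or named for a role of the 10, Irf7, the 2 most abundant genes of each marker list, and the 3 genes nearest in pattern to the 2 with the largest change among those past the threshold. Other marker genes, and the overlapping genes, were named after their values were seen. The genes, lists and tests were chosen with earlier results of these data known. Libraries were not treated as paired by replicate number in the main fit (correlation of deviations 0.079 to 0.138, where over 0.1 was needed in every pair). Missing this cut does not exclude a pairing, and a replicate block was 1 of the alternatives. A gene of the signalling list is not reported here and was taken out of its counts.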

Additional observations from a re-analysis of the deposited data

Results flagged for a closer look

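Of 20 groups of 4 libraries, 4 held a library whose gap to its nearest neighbour was past Dixon's 95% limit for 4 values. The gap was taken as a share of the group's range. For continuous, normally distributed values chance gives about 1 in 20. That rate does not hold for groups with few counts, as for Csf3 and Tslp, so the 4 cannot be set against it. OEIRF7 replicate 3 was the highest of its group for Csf1, with 4166 CPM and a gap of 0.839 of the range, and for Csf1r, with 25.8 CPM and a gap of 0.842. Without that library Csf1 rose by 0.69 on the log2 scale and was still past the threshold (adjusted p = 1.5e-10, edgeR). OEIRF7 replicate 4 was the highest of its group for Tslp, with 15 counts and a gap of 0.856. GFP replicate 4 held the 1 count of Csf3 in GFP, which by itself makes the gap 1.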

How the results depend on the processing

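Of 261 values recomputed under the alternatives, 248 kept their direction and side of the threshold or stayed within 1.5 times the reported count. In 4, the number of the 10 genes with an adjusted p under 0.05 and a log2 fold change past 1, reported as 1, moved. It was 2 with DESeq2, 2 when genes with at least 1 count in total were tested and 2 with limma on log2(FPKM + 0.1), where Kitl was at 1.01. It was 0 with at least 10 counts in every library, a filter that leaves out Csf2. In 9, a value near 0 that was not past the threshold changed sign and stayed on that side. Csf1r was at -0.041 and -0.043 on limma's log2(FPKM + 1) and log2(FPKM + 0.1) scales and at -0.018 to 0.12 when 1 library was left out. Flt3l was at -0.0096 to 0.17 when 1 library was left out. The log2 ratio of Csf1 to Il34 differed by -0.015 with no pseudocount and by -0.049 to 0.080 when 1 library was left out. The number of genes higher was 6 with DESeq2 and with at least 1 count in total, which add Csf3, 4 with at least 10 counts in every library and 5 otherwise. Under the replicate block it was 5, beside 1 lower, and 8211 genes were called in place of 7969, with Csf2 at 5.27. All 8 of 8 libraries correlated best with a library of their own number, a hint from the data and not from the design. Leaving out 1 library gave 7506 to 7775 called genes. Depth limits Csf3, Tslp and the size of the change of Csf2.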

Other observations

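The length implied by the deposited counts and FPKM of a gene, which depends on the transcripts that the FPKM program assigned, was steady across libraries for most of the genes but not for Csf1r and Il15. For Csf1r it ranged from 2140 to 3771 bases, a 1.76-fold spread, with the lowest values in GFP replicates 3 and 4. For Il15 the spread was 1.33-fold. For Kitl it was 5346 to 5520 bases in the GFP libraries and 4985 to 5098 bases in the OEIRF7 libraries, and the log2 fold change of Kitl was 0.92 from counts and 1.01 from log2(FPKM + 0.1).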
